A study of Mus musculus with 6 samples.

Results

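Complex I of the respiratory chain is built from nuclear and mitochondrial gene products, and the 7 subunits encoded by mitochondrial DNA are described here in Atf3 high and Atf3 low areas of the FS6KD mouse heart. The members are the rows on chromosome MT that carry the symbols *mt-Nd1*, *mt-Nd2*, *mt-Nd3*, *mt-Nd4*, *mt-Nd4l*, *mt-Nd5* and *mt-Nd6*. These were 7 of 17145 genes with a count in 6 libraries, and 7 of the 24 genes on chromosome MT. All 7 passed the filter on low counts (at least 10 UMIs summed over the 6 libraries).

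Complex I takes electrons from NADH, passes them to ubiquinone and pumps protons across the inner mitochondrial membrane. All of its mitochondrially encoded subunits lie in the membrane arm. Their mRNAs are cut out of long polycistronic transcripts of both strands of the mitochondrial genome, in most places at the tRNAs between them, and the heart, with its constant demand for ATP, is rich in these transcripts.

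FS6KD mice carry a gene trap in *Ndufs6*, a nuclear gene for an accessory subunit of complex I, on a mixed C57BL/6J and 129/Ola background, and the knockdown is dominant in the heart. Both groups came from such hearts, so they share the genotype, and the labels record Female for all 6 samples. The age of the mice used for these libraries is not given in the sources used here. Photo-isolation chemistry reverse-transcribes mRNA within a frozen section with photo-caged primers, and ultraviolet light then frees the cDNA of chosen areas for amplification. Areas were chosen by immunostaining as high or low in Atf3 protein, a stress-induced transcription factor, with 3 libraries per group. The study gives these as biological replicates, but the labels do not tie areas to animals, so p-values measure the spread between these libraries.

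The Atf3 high libraries held 184872, 81117 and 210588 unique molecular identifiers (UMIs, tags that let the copies of a cDNA molecule be counted as 1) in replicates 1, 2 and 3. The Atf3 low libraries held 171536, 125522 and 81917. A UMI was worth between 4.66 and 13.6 CPM (counts scaled so that every library has the same TMM-adjusted total), and 0 UMIs of a gene thus allowed 14.0 CPM at most in Atf3 high replicate 3 and 40.9 CPM in Atf3 low replicate 3 (the level of 3 UMIs, counting error only).

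The trapped gene came first as a check: the Atf3 high libraries held 2, 0 and 3 UMIs of *Ndufs6*, and each Atf3 low library held 0. With no library of unmodified mice here, its knockdown could not be measured. For *Atf3* RNA the UMI counts were 50, 7 and 25 in the Atf3 high libraries against 35, 0 and 8 in the others, and these ranges overlapped. Because Atf3 protein defined the areas, its RNA is given only as a check of the labels.

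Atf3 high replicate 2 stood apart from the label Female. It held 8 UMIs of *Ddx3y* and 8 of *Eif2s3y*, both Y-linked, and 0 of *Xist*, the RNA that coats the inactive X chromosome. The other Atf3 high libraries had 26 and 12 UMIs of *Xist*, the Atf3 low libraries had 3, 13 and 7, and the only UMI of either of these Y-linked genes outside replicate 2 was 1 of *Ddx3y* in Atf3 low replicate 1. *Uty*, also Y-linked, had 1 UMI each in Atf3 high replicate 3 and Atf3 low replicate 2. The main counts and shares of the 7 mRNAs are therefore given with and without Atf3 high replicate 2, and so are other results whose call at an adjusted p of 0.05, overlap or list median changed side without it.

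The label names cardiomyocytes, and 14 of 15 cardiomyocyte markers had UMIs (*Mb* was not analysed here). Their summed level was 27683, 27867 and 51815 CPM in Atf3 high and 50162, 56862 and 67511 CPM in Atf3 low, led by *Myl2*, the ventricular myosin light chain. All 14 had a log2 fold change below 0, with a median of −0.39 (11 of 14, median −0.20, with library size scaling; 13 of 14, median −0.26, without Atf3 high replicate 2; 14 of 14, median −0.91, without Atf3 high replicate 3; 6 of 14, median 0.096, with library sizes set to the chromosome MT UMIs, chosen after seeing the data), and *Myh6*, the adult myosin heavy chain, was below an adjusted p of 0.05 (−1.81, adjusted p = 0.00512, edgeR). *Myh6* lost this call without each of Atf3 high replicates 1 (−1.58, adjusted p = 0.0712) and 2 (−1.71, adjusted p = 0.0993) and Atf3 low replicate 3 (−1.69, adjusted p = 0.257), and with the chromosome MT library sizes (−1.31, adjusted p = 0.133), all in edgeR. At an unadjusted p under 0.05 in edgeR, 4 of the 14 were lower, against 2.24% of all genes. They were 2 with library size scaling (against 1.36%) and 2 to 8 when each library was left out (against 1.72% to 3.37%). The median of the cardiomyocyte markers thus had the sign of the complex I mRNAs, with overlap of the summed levels between the groups, and their part in the results below was not tested. In such areas, fewer cardiomyocytes and less RNA per cardiomyocyte cannot be told apart.

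Markers of other cells were counted at lower levels. Fibroblast markers (10 of 10 with UMIs, led by *Col3a1*) summed to 5701, 3222 and 2031 CPM in Atf3 high and 2743, 2511 and 1553 CPM in Atf3 low. Of the 10, 9 had a log2 fold change above 0, with a median of 0.83, opposite in sign to the complex I mRNAs. In edgeR 0 passed an adjusted p of 0.05, where 0.0913% of all genes did. At an unadjusted p under 0.05, 3 of the 10 were higher and 0 lower. Of all 7665 genes, 444 had such a p in either direction, 172 of them lower. Without Atf3 high replicate 1, the library with the highest sum, 5 of the 10 lay above 0 and the median was 0.0022. The other left-out libraries gave medians from 0.42 (replicate 3 of Atf3 low) to 1.46 (replicate 1 of Atf3 low). Without Atf3 high replicate 3 (1.19), 1 of the 10 passed an adjusted p of 0.05 in edgeR, where 18 of 7665 genes did. The 10 endothelial markers, led by *Fabp4*, ranged from 1049 to 1840 CPM over the 6 libraries, the 10 mural markers, led by *Des*, from 700.0 to 1388 CPM, and the 10 macrophage markers, led by *Lyz2*, from 214 to 386 CPM. Log2 fold changes lay above 0 for 6 of 10 endothelial (median 0.19), 7 of 9 tested mural (median 0.50) and 4 of 8 tested macrophage markers (median 0.07), against 55.2% of all genes tested. When each library was left out, these medians ranged from 0.011 to 0.31 (endothelial, lowest without Atf3 high replicate 1), from 0.19 to 0.94 (mural, lowest without Atf3 high replicate 3 and highest without Atf3 low replicate 1) and from −0.56 to 0.42 (macrophage, below 0 without Atf3 high replicate 1, Atf3 low replicate 1 or Atf3 low replicate 3). With library size scaling the endothelial, mural and macrophage medians were 0.39 (9 of 10 above 0), 0.73 (7 of 9) and 0.26 (5 of 8). The median of all genes tested was then 0.31. Of 5 erythrocyte markers, 2 had UMIs (*Hba-a1*, *Hbb-bt* and *Alas2* were not analysed here), led by *Hbb-bs*, and their sum reached 157 CPM at most. These lists overlapped between the groups. The atrial list did not overlap: 3 of its 5 genes had UMIs (*Myl7* and *Sln* were not analysed here), led by *Nppa*, which is also induced in stressed ventricles. The sum was 198, 772 and 121 CPM in Atf3 high and 27.0, 33.4 and 109 CPM in Atf3 low. *Nppa* was below an adjusted p of 0.05 (3.22, standard error 0.69, adjusted p = 0.0345, edgeR). It lost this call when replicate 2 of Atf3 high (1.92, adjusted p = 0.903) or replicate 1 (2.74, adjusted p = 0.255), 2 (3.16, adjusted p = 0.0609) or 3 (3.79, adjusted p = 0.257) of Atf3 low was left out in edgeR, with edgeR's filterByExpr (3.25, adjusted p = 0.228), and in DESeq2 (3.23, adjusted p = 0.0906) and limma-trend (2.12, adjusted p = 0.0712). The part of these cells in the results was not tested.

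All 7 mRNAs had a log2 fold change below 0 (Atf3 high minus Atf3 low, edgeR's quasi-likelihood test), as did 44.8% of the 7665 genes tested; 4 of the 7 turned when libraries were scaled to the chromosome MT UMIs, as given below. Their median was −0.44, against 0.11 for all genes tested. After Benjamini-Hochberg adjustment over the genes tested, 0 of the 7 were below an adjusted p of 0.05, where 0.0913% of all genes were (7 of 7665). At an unadjusted p under 0.05, 2 of the 7 (*mt-Nd1* and *mt-Nd3*) were lower, against 2.24% of all genes, and DESeq2 (against 1.59% of all genes) and limma-trend (2.2%) also gave 2 unadjusted and 0 adjusted. Of the 2, only *mt-Nd3* was left with library size scaling (against 1.36% of all genes) or on leaving out replicate 1 (2.24%) or 3 (3.37%) of Atf3 high, or replicate 3 of Atf3 low (2.0%), and only *mt-Nd1* on leaving out replicate 1 of Atf3 low (2.27%). With library sizes set to the chromosome MT UMIs, chosen after seeing the data, 0 were left (0.665%). The same 2 were lower without overlap between the groups, against 3.89% of all genes. Without Atf3 high replicate 2, *mt-Nd4* joined them in both counts, so that 3 of 7 had an unadjusted p under 0.05 against 1.72% of all genes and 3 of 7 did not overlap against 5.61%, and the median was −0.66. Leaving out a library can only add to the genes that do not overlap. Without Atf3 low replicate 3 they were 5 of 7 against 9.13% of all genes. They were 3 of 7 without Atf3 high replicate 1 (against 7.54%), Atf3 high replicate 3 (9.5%) or Atf3 low replicate 2 (8.17%). Without Atf3 low replicate 1 they were 2 of 7 (7.97%). Scaling by library size alone moved the median of all genes to 0.31 and that of the 7 mRNAs to −0.23. Relative to all genes it was −0.55 under either scaling, because a scaling shifts all genes nearly alike. This relative median was −0.38 without Atf3 high replicate 1 and −0.78 without Atf3 high replicate 2. It was −0.44 with edgeR's filterByExpr and −0.73 with no filter on low counts.

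**Figure D1:**
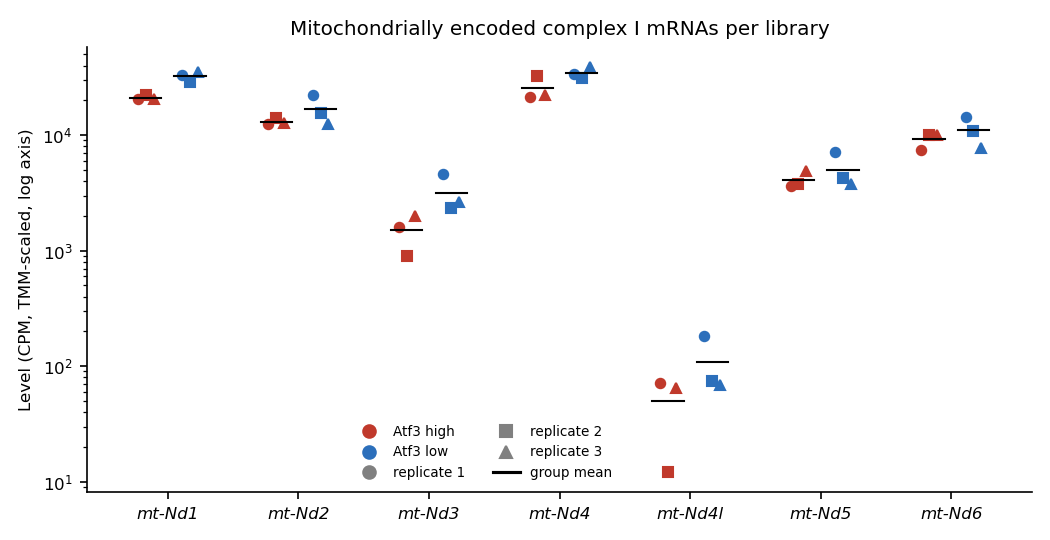
Level of each mitochondrially encoded complex I mRNA in each library, in CPM on a log axis; symbols are libraries, colors are groups and black lines are group means. The groups do not overlap for *mt-Nd1* and *mt-Nd3*, and *mt-Nd4l* lies far below the other mRNAs.

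The first pair of subunits lies at the ubiquinone site, where the membrane arm meets the peripheral arm. *mt-Nd1* (ENSMUSG00000064341, chromosome MT of GRCm38 from 2751 to 3707, plus strand) encodes the subunit that forms much of the channel through which ubiquinone enters. Its level was 20559, 22086 and 20416 CPM in Atf3 high replicates 1, 2 and 3 and 33390, 28857 and 35614 CPM in Atf3 low. The Atf3 high libraries lay close together, and each of them was below each Atf3 low library. The mean was 21020.0 ± 926 CPM in Atf3 high and 32620.2 ± 3444 CPM in Atf3 low (SD, n = 3 libraries), 1.55 times higher in Atf3 low. The log2 fold change was −0.63 (standard error 0.26, unadjusted p = 0.0210, adjusted p = 0.760, edgeR), and −0.67 without Atf3 high replicate 2 (standard error 0.29).

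*mt-Nd3* (ENSMUSG00000064360, from 9459 to 9806, plus strand) encodes a small subunit whose loop lies near the ubiquinone site and moves between the active and the resting form of the enzyme. The Atf3 high libraries held 315, 75 and 426 of its UMIs and the Atf3 low libraries 680, 280 and 192, or 1601, 905 and 1984 CPM against 4582, 2336 and 2615 CPM. The groups did not overlap, with the lowest level in Atf3 high replicate 2 and the highest in Atf3 low replicate 1. Means were 1497 ± 547 and 3178 ± 1224 CPM (SD, n = 3 libraries), 2.12 times higher in Atf3 low. With −1.08 it had the lowest log2 fold change of the 7 in the main fit (standard error 0.35, unadjusted p = 0.00380, adjusted p = 0.649, edgeR). *mt-Nd4l* (−1.05, standard error 0.67) lay lower without Atf3 high replicate 1, Atf3 low replicate 2 or Atf3 low replicate 3, and with a replicate block. Without Atf3 high replicate 2 *mt-Nd3* had −0.83 (standard error 0.37, adjusted p = 0.952, edgeR), and without Atf3 low replicate 1, the library with the most *mt-Nd3*, it had −0.72. This gene shares nearly all of its sequence with a nuclear copy that had more UMIs, described below.

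The next 3 mRNAs encode the antiporter-like subunits, which carry the proton channels of the membrane arm. *mt-Nd4* (ENSMUSG00000064363, from 10167 to 11544) had 21631, 32694 and 22195 CPM in Atf3 high and 33814, 31201 and 38774 CPM in Atf3 low. Only Atf3 high replicate 2 reached the range of the Atf3 low libraries. The log2 fold change was −0.44 (standard error 0.27, adjusted p = 0.964, edgeR), and −0.66 (standard error 0.29, unadjusted p = 0.0294, adjusted p = 0.945, edgeR) without that library.

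*mt-Nd2* (ENSMUSG00000064345, from 3914 to 4951) had 12434, 14108 and 12646 CPM in Atf3 high and 22514, 15684 and 12625 CPM in Atf3 low. Atf3 low replicate 3 lay within the Atf3 high range, and Atf3 low replicate 1 was the highest library. On the log2 scale the groups differed by −0.38 (standard error 0.28, adjusted p = 0.969, edgeR), or by −0.12 without Atf3 low replicate 1. *mt-Nd5* (ENSMUSG00000064367, from 11742 to 13565) had the longest coding sequence and gave 3658, 3765 and 4905 CPM in Atf3 high and 7089, 4246 and 3773 CPM in Atf3 low. The ranges overlapped, and no difference was detected (−0.29, standard error 0.32, adjusted p = 0.996, edgeR). Its direction turned without Atf3 low replicate 1, to 0.036, and without Atf3 low replicate 3 it was −0.47.

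The last pair encodes small subunits between *mt-Nd3* and the antiporter-like subunits. *mt-Nd6* (ENSMUSG00000064368, from 13552 to 14070) is the only mRNA of the minus strand. It had 7515, 10114 and 10061 CPM in Atf3 high and 14454, 10778 and 7804 CPM in Atf3 low. These ranges overlapped, and the log2 fold change was −0.26 (standard error 0.30, adjusted p = 0.996, edgeR). When each library was left out it ranged from −0.46 (replicate 3 of Atf3 low) to −0.010 (replicate 1 of Atf3 low, the highest library), and with library size scaling it was −0.048. *mt-Nd4l* (ENSMUSG00000065947, from 9877 to 10173) was counted with 14, 1 and 14 UMIs in the Atf3 high libraries and with 27, 9 and 5 in the Atf3 low libraries. At these counts, its log2 fold change of −1.05 had a standard error of 0.67 (adjusted p = 0.964, edgeR), without Atf3 high replicate 2 it was −0.70, and without Atf3 low replicate 1, which had the most UMIs of it, −0.43.

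**Figure D2:**
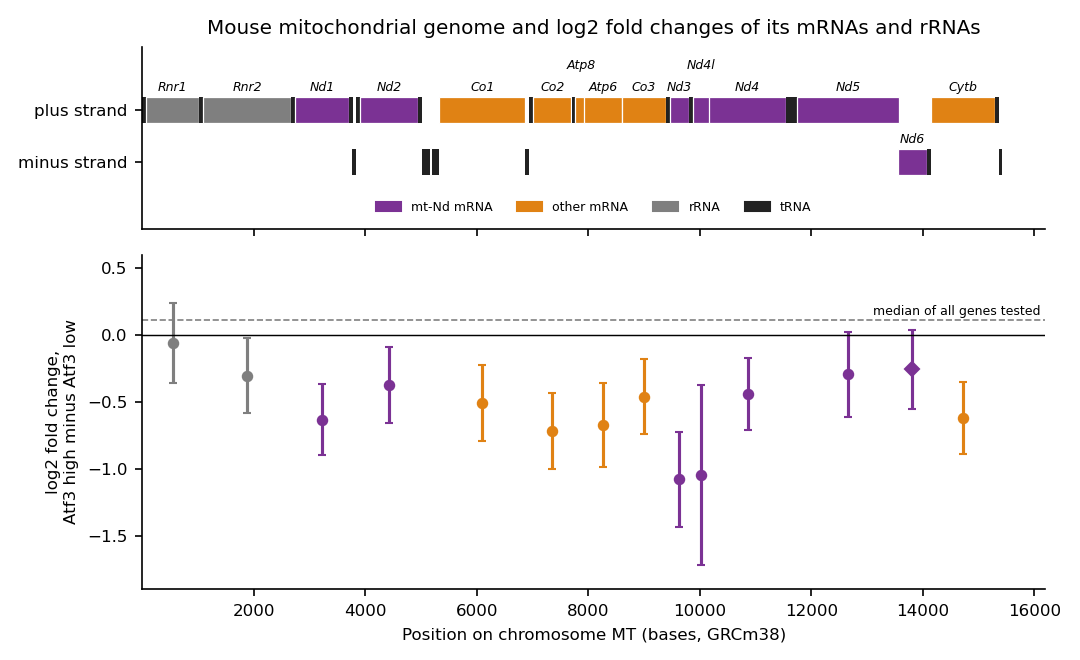
Genes of the mouse mitochondrial genome drawn to scale on both strands (top) and the log2 fold change of each tested mRNA and rRNA, Atf3 high minus Atf3 low, with its standard error (bottom; the diamond is the minus-strand gene *mt-Nd6* and the dashed line the median of all genes tested). All 14 points lie below 0 (*mt-Rnr1* turns to 0.13 with library size scaling and, chosen after seeing the data, 7 of them turn with library sizes set to the chromosome MT UMIs), and *mt-Nd3* and *mt-Nd4l* lie lowest. *mt-Nd4l* rests on 70 UMIs and had −0.43 without Atf3 low replicate 1.

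Levels of different genes were compared per kb of gene length. In Atf3 low, *mt-Nd1* led with 34086 ± 3599 CPM per kb (SD, n = 3 libraries), followed by *mt-Nd4* with 25106 ± 2792, *mt-Nd6* with 21218 ± 6419 and *mt-Nd2* with 16321 ± 4877. *mt-Nd3* had 9131 ± 3518 CPM per kb, *mt-Nd5* 2761 ± 983 and *mt-Nd4l* 365 ± 215. The order in Atf3 high was the same, from 21965 ± 967 CPM per kb of *mt-Nd1* through *mt-Nd4* (18510 ± 4522), *mt-Nd6* (17784 ± 2862), *mt-Nd2* (12585 ± 878), *mt-Nd3* (4301 ± 1572) and *mt-Nd5* (2253 ± 379) to 167 ± 110 of *mt-Nd4l*. Of neighbors in this order, *mt-Nd4* and *mt-Nd6* in both groups, *mt-Nd1* and *mt-Nd4* in Atf3 high, and *mt-Nd6* and *mt-Nd2* in Atf3 low differed by less than the larger of their SDs, and the other neighbors by more. Without Atf3 high replicate 2, *mt-Nd6* came before *mt-Nd4* in Atf3 high, and the other places stayed. CEL-seq2 counts a molecule at its 3′ end, so a longer gene does not by itself give more UMIs, and the order per kb depends on the scale. Nuclear copies, described below, were left out of it. The places of *mt-Nd2* and *mt-Nd3* depend on whether copies are counted, and the groups share this order only without copies. Of the UMIs on the 7 mRNAs, *mt-Nd1* and *mt-Nd4* together held between 57.9% and 73.5% in each library.

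The position of *mt-Nd4l* was not part of the rule for the members. *mt-Nd4l* and *mt-Nd4* are read from the same mature mRNA, with *mt-Nd4l* first, and overlap by 7 bases, from 10167 to 10173. Over all libraries *mt-Nd4l* had 70 UMIs and *mt-Nd4* 23336. The other mitochondrial mRNA with a pair of overlapping reading frames gave a like picture, with 3 UMIs on the upstream *mt-Atp8* and 4986 on *mt-Atp6*. The last 30 bases of *mt-Nd4l* and the first 30 of *mt-Nd4* (GENCODE transcripts, GRCm38) are shown because they hold this overlap, in capitals, with the start codon of *mt-Nd4* and the stop codon of *mt-Nd4l* in different frames.
mt-Nd4l: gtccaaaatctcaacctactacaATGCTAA
mt-Nd4: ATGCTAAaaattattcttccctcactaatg

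*mt-Nd5* and *mt-Nd6* overlap at their 3′ ends on opposite strands, by 14 bases from 13552 to 13565. The last 30 bases of each are shown 5′ to 3′ in their own strand, with the shared bases, which are reverse complements of each other, in capitals.
mt-Nd5: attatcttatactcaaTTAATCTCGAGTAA
mt-Nd6: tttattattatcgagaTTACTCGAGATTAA
The strand setting of the counting is not given in the sources used here, so UMIs of *mt-Nd6* and of any RNA of the opposite strand cannot be told apart. In human cells the ND6 mRNA is known to lack a long poly(A) tail, to which the primers of this method anneal. The ratio of *mt-Nd6* to *mt-Nd5* UMIs within a library was 2.05, 2.69 and 2.05 in the Atf3 high group and 2.04, 2.54 and 2.07 in the Atf3 low group. It was thus nearly the same in 4 libraries of both groups and higher in replicate 2 of each.

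Within the mitochondrial RNA, the share of complex I mRNAs overlapped between the groups, and its difference, a sum over the members, was not tested. The 7 mRNAs held 41.9%, 40.2% and 43.7% of all chromosome MT UMIs in the Atf3 high libraries against 45.8%, 40.7% and 40.1% in the Atf3 low libraries. The Atf3 high values lay within the Atf3 low range. Means were 41.9% ± 1.71 and 42.2% ± 3.12 (SD, n = 3 libraries), a difference of −0.235 percentage points. Without Atf3 high replicate 2 the Atf3 high mean was 42.8% ± 1.24 (SD, n = 2 libraries). These shares rest on 17230 to 37622 chromosome MT UMIs per library.

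Chromosome MT as a whole held 17.1%, 21.2% and 16.9% of all UMIs in the Atf3 high libraries against 21.9%, 21.9% and 22.6% in the Atf3 low libraries, without overlap, although Atf3 high replicate 2 lay close to the Atf3 low libraries. The 7 complex I mRNAs alone held 7.18%, 8.55% and 7.37% of all UMIs against 10.04%, 8.90% and 9.08%, also without overlap. Without Atf3 high replicate 2, the Atf3 high means were 17.004% for chromosome MT, against 22.150% in Atf3 low, and 7.28% for the 7 mRNAs, against 9.34%. The other mRNAs of chromosome MT together held 5.84%, 6.28% and 5.998% against 8.14%, 7.21% and 8.43%, without overlap as well, whereas the rRNAs overlapped. With library sizes set to the chromosome MT UMIs, an alternative chosen after seeing the data, the median log2 fold change of the 7 was 0.0089, with 3 of 7 below 0.

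**Figure D3:**
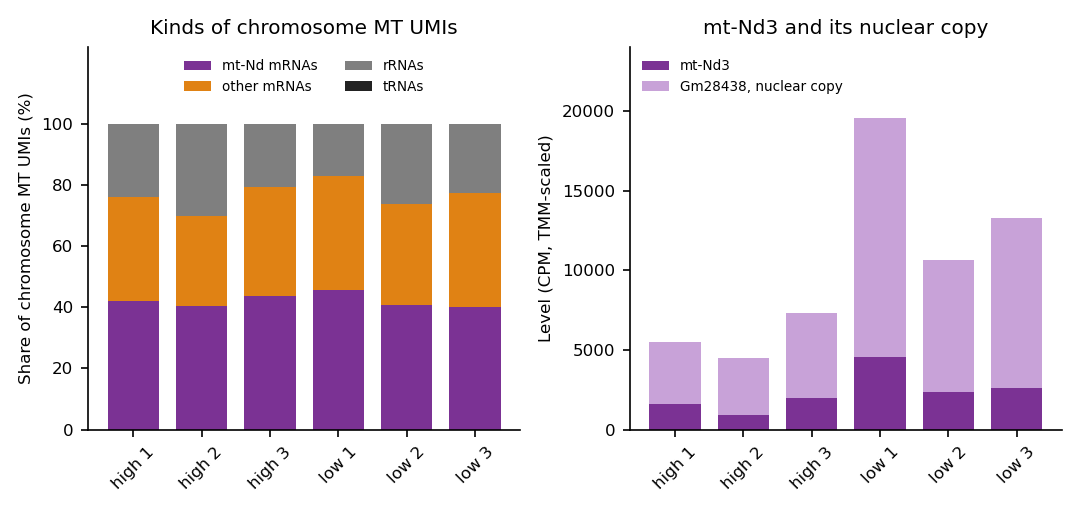
Left, percent of chromosome MT UMIs on complex I (mt-Nd) mRNAs, other mRNAs, rRNAs and tRNAs in each library, with the complex I share between 40.1% and 45.8%. Right, level in CPM of *mt-Nd3* and, stacked on it, of its nuclear copy *Gm28438*; in each library the copy is the larger part.

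Each gene's share of the chromosome MT UMIs was compared by a two-sided exact permutation test, in which 3 libraries against 3 cannot give a p below 0.1. *mt-Nd1* held 12.8%, 10.6% and 12.3% in the Atf3 high group and 13.2%, 12.6% and 14.1% in the Atf3 low group, so that only Atf3 high replicate 1 entered the Atf3 low range (exact permutation p = 0.2). In Atf3 high replicate 2 the 95% Wilson interval of this share was 10.2% to 11.1%, below the interval of each other library of both groups (from 11.997% in Atf3 high and 12.203% in Atf3 low, counting error only). *mt-Nd3* held 0.994%, 0.435% and 1.20% against 1.81%, 1.02% and 1.04%, with overlap (exact permutation p = 0.4). The non-overlapping CPM of both genes thus did not carry over to their shares. The other 5 overlapped too, with exact permutation p from 0.5 to 0.8, and with the mRNAs of chromosome MT alone as the total the 7 genes had p from 0.2 to 0.7 by the same exact test.

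Nuclear copies with UMIs were found for 6 of the 7 genes, and how the counting assigned reads that map to both is not given in the sources used here. Transcripts of nuclear genes were matched by BLAST at 90% identity or more over at least 100 bases. *mt-Nd1* had no such copy. For *mt-Nd4*, *mt-Nd5* and *mt-Nd6*, the copies (*Gm28439*, *Gm11407* with *Gm4076*, and *Gm11408*) held between 1.32% and 6.43% of the UMIs of gene and copies in any library, and the sums had −0.44, −0.32 and −0.27. *Gm10222* on chromosome 1 matched *mt-Nd4l* over 294 bases without a difference, so their UMIs (85 and 70) cannot be assigned by sequence over that stretch. The copy had 28, 2 and 22 UMIs in the Atf3 high libraries and 18, 11 and 4 in the Atf3 low libraries, or 66.7%, 66.7% and 61.1% of the UMIs of the pair in Atf3 high and between 40% and 55% in Atf3 low, without overlap. The share of Atf3 high replicate 2 rests on 2 UMIs of the copy and 1 of *mt-Nd4l*, and that of Atf3 low replicate 3 on 4 and 5. Counted alone, the log2 fold change of *Gm10222* was 0.046 (standard error 0.62, adjusted p = 0.996, edgeR), between −0.41 and 0.41 when each library was left out. Gene and copy summed had −0.47 (standard error 0.53, adjusted p = 0.997, edgeR) against −1.05 for *mt-Nd4l* alone.

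*mt-Nd3* and *Gm28438* (chromosome 1 from 24612775 to 24613119, minus strand, annotated as an unprocessed pseudogene) matched over 345 bases with 1 substitution, T3C, counted from 1 at the 5′ end of *mt-Nd3* (position 9461 of chromosome MT). The first 50 bases of each are shown because the only difference lies there, in capitals, at the third base of the start codon.
mt-Nd3: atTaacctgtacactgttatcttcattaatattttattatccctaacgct
Gm28438: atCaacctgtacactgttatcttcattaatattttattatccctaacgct
The nuclear copy held 764, 295 and 1147 UMIs in the Atf3 high libraries against 2222, 996 and 781 in the Atf3 low libraries. That was 70.8%, 79.7% and 72.9% of the UMIs of gene and copy in the Atf3 high group against 76.6%, 78.1% and 80.3% in the Atf3 low group, so in every library most of the UMIs of this pair were assigned to the copy. These shares overlapped, but not without Atf3 high replicate 2. *Gm28438* was just below an adjusted p of 0.05 (log2 fold change −1.41, standard error 0.31, adjusted p = 0.0450, edgeR). It lost this call with library size scaling (−1.19, adjusted p = 0.109), with no filter on low counts (−1.33, adjusted p = 0.0524), and on leaving out Atf3 high replicate 1 (−1.34, adjusted p = 0.382), Atf3 high replicate 2 (−1.29, adjusted p = 0.411), Atf3 low replicate 1 (−1.15, adjusted p = 0.337) or Atf3 low replicate 3 (−1.46, adjusted p = 0.660), all in edgeR. With library sizes set to the chromosome MT UMIs, chosen after seeing the data, the copy had −0.90 (adjusted p = 0.332, edgeR) and *mt-Nd3* −0.55. A difference between *Gm28438* and *mt-Nd3* was not tested. Their sum had −1.33 (standard error 0.31, unadjusted p = 7.91e-05, adjusted p = 0.0866, edgeR). The level of *mt-Nd3* is uncertain for this reason.

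*mt-Nd2* matched *Gm13339* (chromosome 2 from 22590024 to 22590533) over its last 510 bases with 17 differences. This copy held 30.6%, 26.9% and 32.5% of the UMIs of the pair in the Atf3 high group against 38.1%, 37.6% and 42.7% in the Atf3 low group, without overlap. Its own log2 fold change was −0.96 (standard error 0.30, adjusted p = 0.471, edgeR). Gene and copy summed had −0.58 (standard error 0.28, unadjusted p = 0.0406, adjusted p = 0.832, edgeR) against −0.38 for *mt-Nd2* alone. With copies added, 3 of the 7 (*mt-Nd1*, *mt-Nd2* and *mt-Nd3*) had an unadjusted p under 0.05 in edgeR, against 2.25% of the 7658 genes tested so.

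The other mRNAs of chromosome MT gave similar values. Of 6, 5 were tested (*mt-Atp8* had 3 UMIs), all with a log2 fold change below 0 and a median of −0.62. *mt-Cytb* of complex III had −0.62 (standard error 0.27), *mt-Co1*, *mt-Co2* and *mt-Co3* of complex IV had −0.51, −0.72 and −0.46, and *mt-Atp6* of ATP synthase had −0.68 (standard error 0.31). Of these 5, 4 did not overlap between the groups, against 3.89% of all genes, and 0 were below an adjusted p of 0.05 in edgeR. At an unadjusted p under 0.05, 3 of the 5 were lower, against 2.24% of all genes. They were 1 without Atf3 high replicate 2 (against 1.72%) and 0 with library size scaling (1.36%). Without Atf3 low replicate 1, *mt-Co1* had −0.33 and *mt-Atp6* −0.36. The rRNAs *mt-Rnr1* and *mt-Rnr2* had −0.06 and −0.31 (standard errors 0.30 and 0.28), and both overlapped; *mt-Rnr1* turned to 0.13 with library size scaling. For *mt-Rnr2*, Atf3 high replicate 2 had 50532 CPM, against 26631 and 24752 CPM in the other Atf3 high libraries and 32736, 43773 and 49492 CPM in Atf3 low. Without that library the groups of *mt-Rnr2* did not overlap, and its log2 fold change was −0.71 (standard error 0.29, unadjusted p = 0.0202, adjusted p = 0.903, edgeR). With library size scaling it was −0.11, and the other left-out libraries gave −0.46 to −0.12. A difference between the complex I mRNAs and these RNAs was not tested.

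Nuclear genes of the complex and of mitochondrial gene expression were read beside the 7 mRNAs. Of 35 tested nuclear subunits, 29 had a log2 fold change below 0, against 44.8% of all genes tested, with a median of −0.30 (22 of 35, median −0.09, with library size scaling; 26 of 35, median −0.17, without Atf3 high replicate 2; 26 of 35, median −0.13, without Atf3 high replicate 1; 5 of 35, median 0.19, with library sizes set to the chromosome MT UMIs, chosen after seeing the data). In edgeR 0 of the 35 were below an adjusted p of 0.05, against 0.0913% of all genes. Among all 7665 genes, 444 had an unadjusted p under 0.05 in edgeR, 172 of them lower. Among the 35 subunits, 1 was lower and 1 higher at this level. The 3 of smallest p were *Ndufs5* (2.53, standard error 0.59, adjusted p = 0.0906; 2.74, adjusted p = 0.0482 with library size scaling, and 3.04, adjusted p = 0.0287 with the chromosome MT library sizes, all in edgeR), *Ndufv3* (−0.80, standard error 0.40) and *Ndufa9* (−0.68, standard error 0.46; −1.17 without Atf3 high replicate 3). Among 17 assembly factors the median was −0.19 with 12 below 0, but it was 0.19 without Atf3 high replicate 2, 0.04 with library size scaling and 0.21 without Atf3 low replicate 1, each with 8 below 0. It was −0.46 without Atf3 high replicate 1 (11 below 0) and −0.47 without Atf3 high replicate 3 (12 below 0). The 3 of smallest p, *Dmac1* (1.09), *Timmdc1* (−1.11) and *Ndufaf7* (−2.03), had adjusted p of at least 0.964 in edgeR. When each library was left out, *Timmdc1* lay between −1.70 (without Atf3 high replicate 2, where the groups did not overlap) and −0.073 (without Atf3 low replicate 1), and *Ndufaf7* reached −4.73 (without Atf3 high replicate 3).

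Genes that transcribe and process mitochondrial RNA had a median above 0, as had all genes tested (0.11). Of 17, 12 had a log2 fold change above 0, against 55.2% of all genes, with a median of 0.37 (0.05 without Atf3 low replicate 3 and −0.03 over 14 genes after thinning all libraries to the shallowest). None passed an adjusted p of 0.05 in edgeR, where 0.0913% of all genes did. At an unadjusted p under 0.05, 444 of 7665 genes passed in either direction, 172 of them lower. Of the 17, 1 was higher and 0 lower at this level. *Polrmt*, the mitochondrial RNA polymerase, gave 13, 2 and 15 UMIs in the Atf3 high libraries against 1, 3 and 0 in the Atf3 low libraries (2.19, standard error 1.05, adjusted p = 0.833, edgeR). Its levels overlapped, but not without Atf3 high replicate 2 (2.48). The log2 fold change reached 3.42 on leaving out replicate 2 of Atf3 low, and it was 1.06 in limma-trend. *Lrpprc*, which binds and stabilizes mitochondrial mRNAs, had 132, 145 and 140 CPM in Atf3 high and 87.6, 75.1 and 54.5 CPM in Atf3 low, without overlap (0.90, standard error 0.58, adjusted p = 0.964, edgeR), and *Tefm*, an elongation factor, had 0.87 (standard error 0.93). *Tfam*, which packages mitochondrial DNA and starts its transcription, had between 0 and 10 UMIs per library (0.57, standard error 0.96). Both moved when a library was left out, *Tefm* from 0.28 (replicate 1 of Atf3 high) to 3.18 (replicate 1 of Atf3 low) and *Tfam* from 0.11 (replicate 3 of Atf3 low) to 2.04 (replicate 1 of Atf3 low). The 14 tested genes of mitochondrial DNA maintenance had a median of −0.03, with 7 on either side of 0. It was 0.15 without Atf3 high replicate 2, 0.22 without Atf3 low replicate 1 and 0.18 with library size scaling. It was −0.14 without Atf3 high replicate 1, −0.11 without Atf3 low replicate 2 and −0.21 over 12 genes after thinning. The list was led in p by *Polg* (2.40, standard error 1.09), *Mfn1* (−0.87, standard error 0.53, and −1.63 without Atf3 high replicate 3) and *Mgme1* (1.31, standard error 1.21, and from 0.27 without Atf3 high replicate 1 to 2.95 without Atf3 low replicate 3). In edgeR 0 of the 14 were below an adjusted p of 0.05. At an unadjusted p under 0.05, 1 was higher and 0 lower, against 444 of 7665 genes in either direction, 172 of them lower.

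Apart from the nuclear copies, the genes off chromosome MT whose levels over the 6 libraries were most like the mean log2 level of the 7 mRNAs were *Lpin1* (Pearson r = 0.957), *Atp5g3* (0.949), *Idh3b* (0.941), *Gja1* (0.930) and *Psmb1* (0.927). They were picked from 1223 genes with a mean level of at least 100 CPM over the same 6 libraries, so these values are a description. The mean gave each of the 7 mRNAs the same weight, *mt-Nd4l* with 70 UMIs included, and was lowest in Atf3 high replicate 2 (11.75). Within Atf3 high, that library had the highest share of all UMIs on the 7 mRNAs (8.55%). Pearson r between pairs of the 7 ranged from −0.024 to 0.937, with a median of 0.518. *Lpin1* encodes a phosphatidate phosphatase of lipid metabolism, *Atp5g3* a subunit of ATP synthase, *Idh3b* a subunit of isocitrate dehydrogenase, *Gja1* connexin 43 and *Psmb1* a proteasome subunit. *Lpin1* had 117, 72.4 and 144 CPM in Atf3 high and 377, 234 and 245 CPM in Atf3 low, where, as for *mt-Nd3*, Atf3 high replicate 2 was lowest and Atf3 low replicate 1 highest.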

How the data were processed

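Libraries of 3 Atf3 high and 3 Atf3 low areas were grouped by their labels. The deposited values were UMI counts per gene without normalization. The submitters' processing notes name UMI-tools (version 1.0.0), HISAT2 (version 2.1.0), featureCounts (version 1.6.4) and GRCm38; annotation release, strand setting and the handling of multi-mapped reads are not given in the sources used here.

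The quasi-likelihood test of edgeR (version 4.0.16, glmQLFTest; R version 4.3.3) was run without covariates on the 7665 of 17145 genes whose UMIs summed to 10 or more, after TMM scaling and with Benjamini-Hochberg adjustment. CPM use the TMM-scaled totals of the tested genes. Single shares were compared by exact permutation over the 6 libraries. The common biological coefficient of variation was 53.6%. Scripts were tested on simulated data.

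The members and gene lists (nuclear subunits, assembly factors, mitochondrial transcription and RNA processing, mitochondrial DNA maintenance and cell markers) were chosen with earlier results of these data known. Genes named were the members, the other mRNAs and rRNAs of chromosome MT, nuclear copies with at least 10 UMIs, the 3 genes of smallest p in each of the first 4 lists, *Ndufs6*, *Tfam*, *Polrmt*, *Lrpprc* and *Atf3*, the most abundant gene of each marker list, the 5 genes most like the members (Pearson, log2(CPM + 4)), and *Xist* with Y-linked genes. *Myh6* was named, and the values of *Nppa* and *Gm10222* were added, after they were seen. Copies were found with BLAST+ (version 2.17.0) in GENCODE M21 transcripts.

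Alternatives were other scalings, DESeq2 (version 1.42.0), limma-trend (limma version 3.58.1), other filters, a replicate block, thinning, copies added and leaving out each library.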

Additional observations from a re-analysis of the deposited data

How the results depend on the processing

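Of 119 log2 fold changes of the 7 mRNAs under 17 alternatives, 113 kept their direction and their side of an adjusted p of 0.05. With library sizes set to the chromosome MT UMIs, chosen after seeing the data, *mt-Nd2* (0.096), *mt-Nd4* (0.0089), *mt-Nd5* (0.20) and *mt-Nd6* (0.21) turned, the median of the 7 was 0.0089 and 4 genes were called; this alternative removes what is common to mitochondrial RNA by construction. *mt-Nd5* also turned without Atf3 low replicate 1 (0.036; −0.47 without Atf3 low replicate 3), and the cause was not tested; *mt-Nd6* was −0.010 without Atf3 low replicate 1. Library size scaling gave −0.16 for *mt-Nd2*, −0.23 for *mt-Nd4*, −0.078 for *mt-Nd5* and −0.048 for *mt-Nd6*. Under the planned scalings, tests, filters, thinning and copies added, the median and the 7 log2 fold changes stayed below 0.

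Leaving out each library in turn gave 1 to 18 genes called in all, against 7, and medians of the 7 mRNAs from −0.66 to −0.34. The difference in their share of chromosome MT UMIs ranged from −1.27 to 1.56 percentage points, was 1.87 with mRNAs alone as the total and −1.87 with copies added, each within 1 SD between libraries (2.52) of the value reported, so its sign is not settled. Of 413 log2 fold changes of 25 other genes given above, 379 kept direction and side. *mt-Rnr1* turned with library size scaling (0.13), limma-trend (0.011) and a replicate block (0.012), and with libraries left out (0.051 for Atf3 high replicate 3, 0.27 for Atf3 low replicate 2; lowest −0.29), and the cause was not tested. *Gm10222* turned with limma-trend (−0.11), a replicate block (−0.066) and with libraries left out (from −0.41 to 0.41), and the cause was not tested. With chromosome MT library sizes, *mt-Rnr1* (0.39), *mt-Rnr2* (0.11) and *mt-Co3* (0.011) turned.

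Libraries of the same replicate number deviated together only weakly (r = 0.085, 0.00088 and 0.066), and not every library was most like that of its own number, so the numbers were not taken as pairs. With a replicate block, 24 of 7665 genes were called, among them *mt-Nd3* (−1.09, adjusted p = 0.0495, edgeR, and up to 0.992 under its other alternatives) and *Ndufs5* (2.45, adjusted p = 0.0144, edgeR, and up to 0.750 under its other alternatives). Also called were 2 of 10 fibroblast markers (0 in the main fit) and 2 of 14 cardiomyocyte markers (1 in the main fit). The complex I share of chromosome MT UMIs differed by −0.235 points.

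At this depth *mt-Nd4l*, *Polrmt* and *Tfam* had as few as 0 or 1 UMI in a library, with standard errors of 0.67, 1.05 and 0.96 for their log2 fold changes. In limma-trend, *Polrmt* (1.06), *Polg* (1.01), *Mgme1* (0.37), *Ndufaf7* (−0.68) and *Timmdc1* (−0.59) lay closer to no change than in edgeR, and the cause was not tested.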
